A study of Mus musculus with 10 samples.

Results

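The p53 and growth arrest genes examined here are *Trp53*, which encodes the transcription factor p53, and 9 genes known as p53 targets or as stress-induced brakes on cell division: *Mdm2*, *Cdkn1a*, *Ccng1*, *Phlda3*, *Gadd45a*, *Gadd45b*, *Gadd45g*, *Sesn1* and *Eda2r*. They were taken by gene name from an expression table of 54532 genes, and each of the 10 names matched 1 gene. All 10 passed the filter on low values that left 24508 genes for testing, *Eda2r* only through its levels after light damage.

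RNA-seq was done on 10 neural retinas of BALB/c mice aged 2 months, an inbred albino strain whose eyes lack the pigment that shields photoreceptors. All mice, controls included, had 12 hr of dark adaptation, followed by 1 day at 200 lux (normal light, NL; retinas NL-1, NL-4, NL-5, NL-7 and NL-8) or at 15000 lux (light damage, LD; retinas LD-1, LD-4, LD-6, LD-7 and LD-8). The study used this exposure to look for genes that light stress switches on in the retina before photoreceptors are lost. The study calls the retinas biological replicates, but the labels do not tie them to mice, so p-values measure the spread between these 5 retinas per group.

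p53 is held at a low protein level by MDM2, a ubiquitin ligase that is itself a p53 target, and it accumulates when DNA is damaged or cells are stressed. Its targets stop the cell cycle, limit oxidative and metabolic damage, or start cell death. In adult retina nearly all neurons have left the cell cycle for good, and several of these genes, the *Gadd45* genes above all, can also be switched on by stress and cytokine signals that do not need p53. A transcript level does not report p53 protein or its activity.

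After LD, 5 of the 10 genes rose: *Gadd45b*, *Eda2r*, *Cdkn1a*, *Gadd45g* and *Phlda3*. None fell by more than 2-fold. *Trp53* itself was higher, and *Sesn1* lower, by less than 2-fold. *Mdm2*, *Ccng1* and *Gadd45a* did not pass the test. The test was limma on log2(FPKM + 0.1), with Benjamini-Hochberg adjustment over the 24508 genes, and a gene was called at an adjusted p under 0.01 and a change above 2-fold. FPKM counts fragments per kilobase of gene and is scaled to library size, so that levels of different genes can be set side by side. The background was 6.51% of all genes called, 4.13% higher and 2.37% lower. At an adjusted p under 0.01 without a minimum fold, 7 of the 10 genes passed, against 17.0% of all genes, and in the same number the NL and LD values did not overlap, against 22.4% of all genes. The median log2 fold change was 0.94 over the 10 genes and -0.01 over all genes tested. When any 1 retina was left out, 5 genes were still called.

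**Figure D1:**
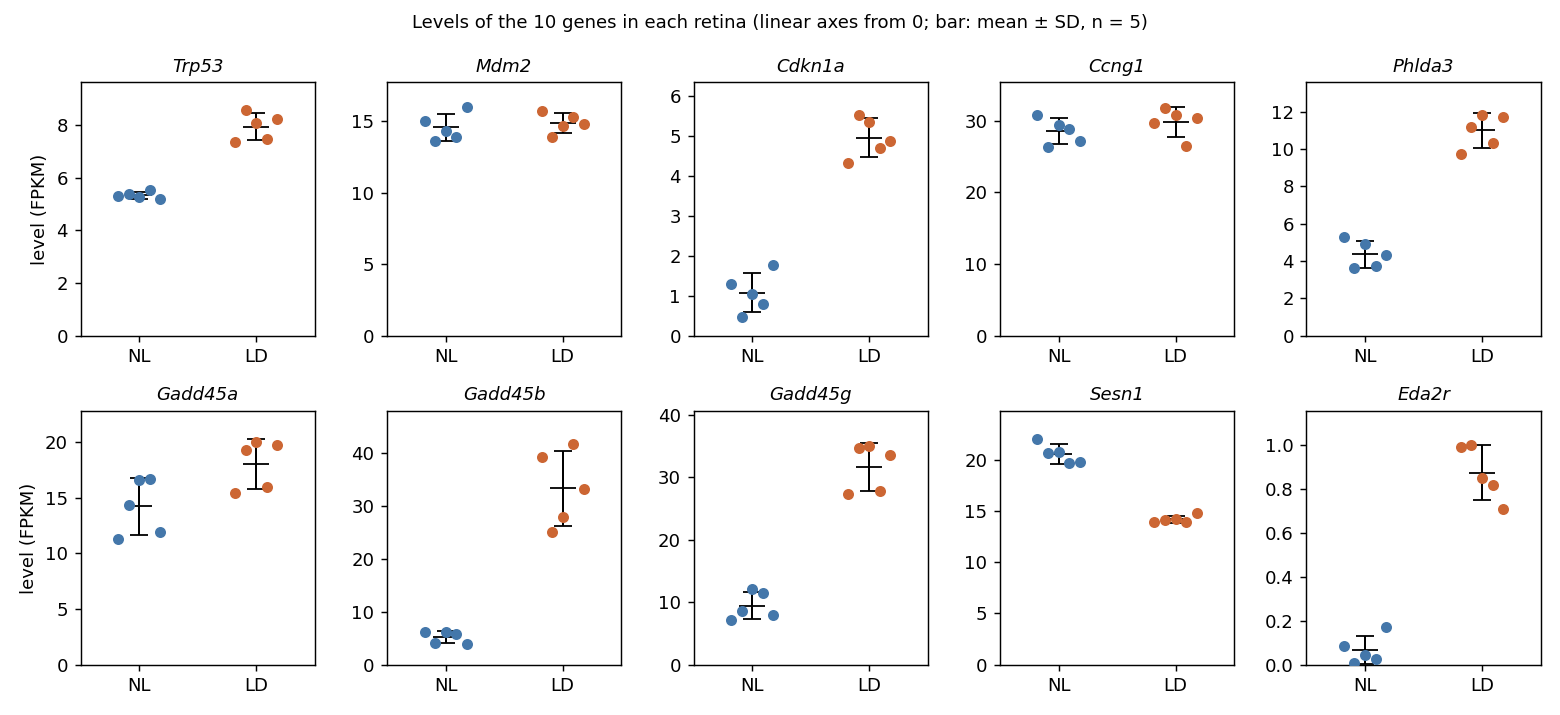
Levels in FPKM (vertical axes, linear from 0) of the 10 genes in the 5 NL and 5 LD retinas; each point is a retina, and the bars give the mean ± SD. The LD points of *Cdkn1a*, *Gadd45b*, *Gadd45g*, *Phlda3*, *Eda2r* and *Trp53* lie above all NL points, those of *Sesn1* lie below them, and those of *Mdm2*, *Ccng1* and *Gadd45a* share their range with NL.

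The reads behind these values ranged from 18965090 to 26832535 per retina, and for a gene of 1 kb a single read was worth 0.0388 to 0.0493 FPKM. All 10 rod markers tested were present in every retina, and all 10 fell after LD, their summed level going from 10023 to 12211 FPKM under NL to 1565 to 3061 FPKM. From RNA of whole retina alone, fewer rods and less RNA per rod cannot be told apart. The study's histology found no obvious degeneration after this same exposure, and significant degeneration only after a longer one. Rod number in the sequenced retinas was not tested. Of 10 markers of microglia and macrophages, 6 rose, and their sum went from 30.2 to 48.6 FPKM up to 61.3 to 146 FPKM. Of 10 Müller glia markers *Vim* rose (log2 fold change 2.02) and *Glul* fell (log2 fold change -2.09). The 10 summed to 1430 to 1658 FPKM under NL and 915 to 1251 FPKM after LD. *Glul* weighs heavily in this sum, with means of 711 FPKM under NL and 165 FPKM after LD. The median log2 fold change of the 10 was 0.04. None of 10 ganglion cell markers was called (271 to 323 and 268 to 305 FPKM). None of 10 endothelial markers was called (sums of 47.3 to 57.2 and 63.1 to 101 FPKM), and none of 10 pigment epithelium markers (58.6 to 168 and 67.6 to 130 FPKM). No marker of these 6 lists was at 0 or stayed at 3 reads or fewer in all retinas. Of 10 neutrophil and monocyte markers, 5 stayed at 3 reads or fewer in every retina, and the list summed to at most 1.86 FPKM. Of 10 markers of dividing cells, 6 rose, with sums of 3.46 to 4.10 FPKM under NL and 5.22 to 7.26 FPKM after LD. All of these 6 but *Birc5* were under 0.1 FPKM in every NL retina and passed the filter only through LD, so their calls are not independent of it. What part these cells had in the values of the p53 genes was not tested.

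The regulators come first. *Trp53* (chr11:69580359-69591873, plus strand of GRCm38) measured 5.31, 5.40, 5.27, 5.54 and 5.18 FPKM in NL-1, NL-4, NL-5, NL-7 and NL-8, and 7.37, 8.58, 8.07, 7.47 and 8.23 FPKM in LD-1, LD-4, LD-6, LD-7 and LD-8. The NL retinas were nearly alike, and every LD retina was above them. The NL and LD means were 5.34 ± 0.137 and 7.94 ± 0.515 FPKM (SD, n = 5 each), and the log2 fold change was 0.56 (SE 0.05, limma adjusted p = 3.12e-05). The 95% interval of the log2 fold change was 0.44 to 0.68, below the 2-fold threshold over its whole length.

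*Mdm2* (chr10:117688875-117710758, minus strand), the ubiquitin ligase that marks p53 for degradation, measured 15.0, 13.6, 14.3, 13.9 and 16.0 FPKM in the 5 NL retinas and 15.7, 13.9, 14.7, 15.3 and 14.8 FPKM in the 5 LD retinas, in the order given above. The LD values lay inside the NL range. The means were 14.6 ± 0.942 and 14.9 ± 0.710 FPKM (SD, n = 5 each), and the log2 fold change of 0.03 (limma adjusted p = 0.709) had a 95% interval of -0.09 to 0.15, so that a change of the size seen for *Trp53* lay outside it. The ratio of *Mdm2* to *Trp53* FPKM was 2.73 ± 0.237 under NL and 1.88 ± 0.210 after LD (SD, n = 5 each), and the lowest NL ratio, 2.51, was above the highest LD ratio, 2.13.

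*Cdkn1a* (chr17:29090976-29100727, plus strand) encodes p21, an inhibitor of cyclin-dependent kinases and the classical effector of p53-induced arrest. Its levels were 1.30, 0.477, 1.05, 0.795 and 1.78 FPKM in the NL retinas and 4.33, 5.52, 5.35, 4.71 and 4.87 FPKM in the LD retinas. All LD retinas were well above NL, and it was the NL retinas that were scattered, with NL-8 highest and NL-4 lowest. The mean rose from 1.08 ± 0.496 to 4.96 ± 0.485 FPKM (SD, n = 5 each), and the log2 fold change was 2.20 (SE 0.27, limma adjusted p = 1.56e-04), or 4.60-fold, on 36 to 163 reads in an NL retina and 375 to 425 in an LD retina. A predicted transcript on the opposite strand, AC167363.2, overlaps *Cdkn1a* and had at most 18 reads in a retina. Whether the counting used strand is not given in the sources used here.

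The 120 bases before the first RefSeq start of *Cdkn1a* are shown because, of the 10 genes, it alone held 2 CATG cores spaced as in a p53 response element within the searched window, which ran from 250 bases before to 50 bases after each start (RefSeq, GRCm38.p6, chr17:29090859-29090978, plus strand). Capitals mark both cores and the 6 bases between them, 48 to 35 bases before this first start, chr17:29090979. The second RefSeq start of *Cdkn1a* lies downstream, at chr17:29093769, and its window held no such pair.
Cdkn1a: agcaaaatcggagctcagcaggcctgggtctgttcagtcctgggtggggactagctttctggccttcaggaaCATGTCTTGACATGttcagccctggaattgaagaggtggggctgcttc
The pattern CATGNNNNNNCATG occurred in 234 of 32851 start windows (0.712%), on either strand, which are the same matches since the pattern reads alike on both. The p53 consensus decamer was searched on both strands and overlapped 1 of these cores. It was in 6 of the 12 windows of the 10 genes, against 8.36% of all windows. Those windows belonged to 6 genes (*Trp53*, *Mdm2*, *Cdkn1a*, *Ccng1*, *Gadd45a* and *Sesn1*). *Cdkn1a* and *Sesn1* had 2 windows each. The decamer was only at the first start of *Cdkn1a* and only at the second start of *Sesn1*. Only 1 of those 6, *Cdkn1a*, was called, while none of the windows of *Gadd45b*, *Gadd45g*, *Phlda3* and *Eda2r* held the decamer. Elements outside these windows, such as those in introns, were not searched. The patterns were chosen after the expression values were seen, and a match is a description of the letters only.

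Among the CDK inhibitor genes, *Cdkn1a* was a small part of the whole, per length. It made up 1.59 ± 0.685% of the summed FPKM of *Cdkn1a* and the 6 other inhibitors under NL and 6.45 ± 0.529% after LD (SD, n = 5 each), with no overlap. The sum itself was 67.4 ± 2.46 and 76.8 ± 1.66 FPKM. Of the 6 others, 5 were tested and 1 rose: *Cdkn2b*, which encodes p15, an inhibitor of CDK4 and CDK6, went from 0.496 ± 0.143 to 3.11 ± 1.17 FPKM (log2 fold change 2.39, limma adjusted p = 8.34e-05). Its LD values were 2.27, 4.26, 4.50, 2.31 and 2.20 FPKM, high in LD-4 and LD-6, the LD retinas with the highest sums of endothelial and of Müller glia markers and the lowest of rod markers. *Cdkn2a* was not tested, with at most 1 read in an NL retina and 1 to 8 reads in an LD retina.

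*Ccng1* (chr11:40748552-40755311, minus strand), the gene of cyclin G1 and a long-known p53 target, measured 30.8, 26.3, 29.4, 28.8 and 27.1 FPKM under NL and 29.6, 31.8, 30.8, 26.4 and 30.3 FPKM after LD. The groups overlapped over most of their range. The log2 fold change was 0.06 (limma adjusted p = 0.491), with a 95% interval of -0.07 to 0.20.

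*Phlda3* (chr1:135766119-135769136, plus strand) encodes a small pleckstrin-homology protein that competes with AKT for membrane lipids and so lowers AKT signalling. Its levels were 5.28, 3.62, 4.90, 3.72 and 4.35 FPKM under NL and 9.73, 11.2, 11.8, 10.3 and 11.7 FPKM after LD. The groups were far apart, at 3.62 to 5.28 FPKM under NL and 9.73 to 11.8 FPKM after LD. The mean rose from 4.37 ± 0.723 to 11.0 ± 0.923 FPKM (SD, n = 5 each), and the log2 fold change was 1.32 (SE 0.11, limma adjusted p = 1.19e-05), or 2.49-fold.

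*Sesn1* (chr10:41809935-41908424, plus strand) encodes sestrin 1, a stress protein that restrains mTORC1 and lowers peroxides. It measured 22.1, 20.7, 20.8, 19.7 and 19.8 FPKM under NL and 13.9, 14.1, 14.2, 13.9 and 14.8 FPKM after LD. It was lower in every LD retina than in any NL retina, and the LD retinas hardly differed among themselves. The means were 20.6 ± 0.980 and 14.2 ± 0.375 FPKM (SD, n = 5 each), with a log2 fold change of -0.54 (SE 0.04, limma adjusted p = 7.03e-06), short of 2-fold, and a 95% interval of -0.63 to -0.45. Its relative *Sesn2*, on the list of other arrest and feedback targets, differed the other way, from 5.87 ± 0.592 to 9.77 ± 1.82 FPKM (log2 fold change 0.71, limma adjusted p = 0.00175), also under 2-fold. A predicted transcript on the same strand, 9930024M15Rik, lies within *Sesn1* and had 9 to 38 reads per retina.

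*Eda2r* (chrX:97333840-97377216, minus strand) encodes a receptor of the TNF receptor family that binds the A2 form of ectodysplasin and is a p53 target in several tissues. It was close to absent under NL, with 11, 1, 5, 3 and 26 reads in NL-1, NL-4, NL-5, NL-7 and NL-8, and had 143, 120, 112, 110 and 93 reads in LD-1, LD-4, LD-6, LD-7 and LD-8. In FPKM these were 0.0873, 0.00799, 0.0418, 0.0240 and 0.171 under NL and 0.995, 1.00, 0.850, 0.820 and 0.709 after LD. NL-8 and NL-1 held most of the NL reads, and even the highest NL value was far below the lowest LD value. The log2 fold change was 2.62 (SE 0.26, limma adjusted p = 3.77e-05) and the ratio of the group means, 0.0664 ± 0.0656 and 0.876 ± 0.125 FPKM (SD, n = 5 each), was 13.2. *Eda2r* passed the filter only through the group in which it was high, so its difference is not independent of that filter. At this level the log2 fold change depended on the pseudocount: it was 0.81, under 2-fold, with a pseudocount of 1 FPKM and 3.97 with one of 0.01 FPKM. It was 4.14 when recovered reads were fitted with limma-voom, and the adjusted p was under 0.01 in all 3. Of its ligand and relatives 3 of 5 genes were tested and none was called; the ligand gene *Eda* had means of 0.249 and 0.277 FPKM (log2 fold change 0.11, limma adjusted p = 0.647).

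**Figure D2:**
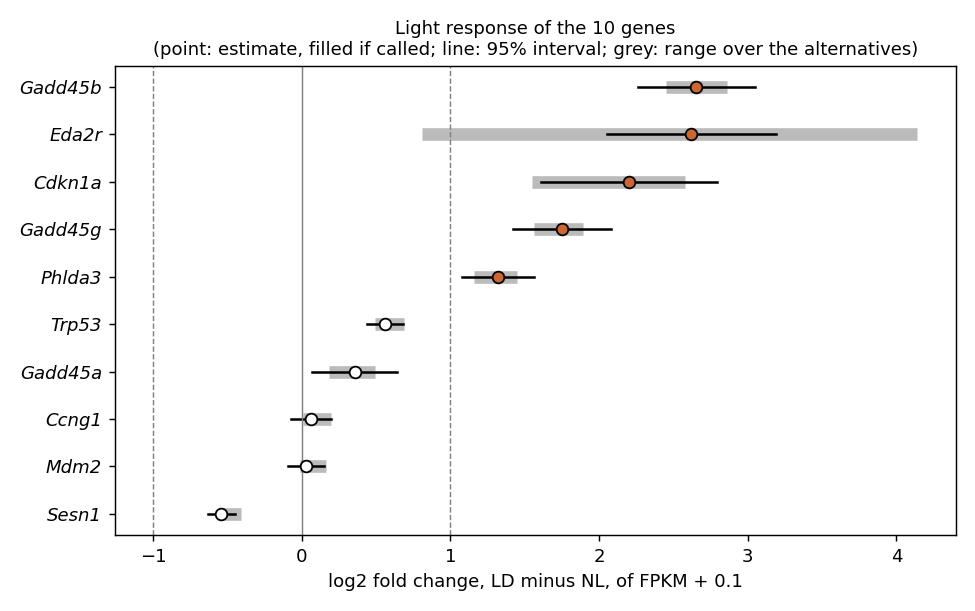
Log2 fold change, LD minus NL, of FPKM + 0.1 for the 10 genes (horizontal axis); points are estimates over 5 NL and 5 LD retinas, filled where called, black lines are 95% intervals, grey bars span the alternatives, and dashed lines mark 2-fold. *Gadd45b* is highest at 2.65 and *Sesn1* lowest at -0.54, and the widest grey bar is that of *Eda2r*, from 0.81 to 4.14.

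The 3 *Gadd45* genes encode small related proteins that bind the stress kinase MAP3K4 (MTK1), PCNA and the CDK1 complex. *Gadd45a* is the p53 target of the family, while *Gadd45b* is best known as a target of NF-κB and TGF-β signalling. *Gadd45a* (chr6:67035096-67037457, minus strand) measured 11.3, 14.3, 16.6, 16.7 and 11.9 FPKM under NL and 15.4, 19.3, 20.0, 15.9 and 19.7 FPKM after LD. LD-1 and LD-7 fell within the NL range and the other LD retinas above it. The means were 14.2 ± 2.52 and 18.0 ± 2.23 FPKM (SD, n = 5 each), with a log2 difference of 0.36 (95% interval 0.07 to 0.64, limma adjusted p = 0.0611). The adjusted p ran from 0.0147 to 0.289 over the alternatives. E230016M11Rik, a noncoding gene on the opposite strand, shares 859 bases of span with *Gadd45a*, and its mean went the other way, from 7.02 to 4.48 FPKM (log2 fold change -0.65, limma adjusted p = 0.00660).

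*Gadd45b* (chr10:80930073-80932204, plus strand) measured 6.24, 4.12, 6.26, 5.72 and 3.90 FPKM under NL and 39.3, 25.1, 28.0, 41.7 and 33.2 FPKM after LD. The LD retinas were all several times above NL but spread widely, with LD-1 and LD-7 highest. Its mean rose from 5.25 ± 1.15 to 33.4 ± 7.09 FPKM (SD, n = 5 each), and the log2 fold change was 2.65 (SE 0.18, limma adjusted p = 2.85e-06), or 6.28-fold, rank 205 of the 24508 genes by log2 fold change. *Gadd45g* (chr13:51846678-51848468, plus strand) measured 7.18, 8.59, 12.1, 11.5 and 8.0 FPKM under NL and 27.3, 34.7, 35.1, 27.8 and 33.6 FPKM after LD. Here LD-1 and LD-7 were the lowest of the LD retinas, the reverse of *Gadd45b*. The mean rose from 9.48 ± 2.20 to 31.7 ± 3.81 FPKM (SD, n = 5 each), and the log2 fold change was 1.75 (SE 0.15, limma adjusted p = 1.41e-05), or 3.37-fold.

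The starts of *Gadd45b*, *Gadd45g* and *Eda2r* are shown because these 3 called genes had a match to the core TATA box (TATAAA) on the gene's strand within 60 bases before the RefSeq start, as did 944 of 32851 windows (2.87%). The 120 bases before each start (RefSeq, GRCm38.p6) lie at chr10:80929971-80930090, plus strand, chr13:51846555-51846674, plus strand, and chrX:97377210-97377329, minus strand, and capitals mark TATAAA.
Gadd45b: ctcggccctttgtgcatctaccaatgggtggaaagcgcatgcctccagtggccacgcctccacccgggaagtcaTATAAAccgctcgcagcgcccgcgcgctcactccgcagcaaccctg
Gadd45g: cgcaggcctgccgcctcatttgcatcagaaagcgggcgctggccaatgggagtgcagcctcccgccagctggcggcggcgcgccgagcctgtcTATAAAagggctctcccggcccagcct
Eda2r: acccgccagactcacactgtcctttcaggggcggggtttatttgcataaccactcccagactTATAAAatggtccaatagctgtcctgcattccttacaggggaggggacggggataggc
The match lay 46 to 41 bases before the start in *Gadd45b*, 27 to 22 bases in *Gadd45g* and 58 to 53 bases in *Eda2r*. Whether any of the matches works as a TATA box was not tested. Counted on both strands of the whole windows, TATAAA was in 4 of the 10 genes (4 of their 12 windows), *Trp53* among them, and in 13.6% of all windows. CCAAT was in 8 of the 10 genes (9 of their 12 windows) and 37.4% of all windows. The AP-1 pattern TGANTCA (7.81% of all windows), the CRE pattern TGACGTCA (1.79%) and the STAT pattern TTCNNNGAA (8.30%) were in none of the windows of the 10 genes, which says only that these letters do not occur there.

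Together the 3 *Gadd45* genes went from 28.9 ± 5.20 to 83.2 ± 2.92 FPKM (SD, n = 5 each), and the shares within the family shifted. *Gadd45a* made up 49.1 ± 2.74% of the sum under NL and 21.7 ± 2.84% after LD. *Gadd45b* went from 18.3 ± 3.98% to 40.1 ± 7.92%, and *Gadd45g* from 32.6 ± 2.26% to 38.2 ± 5.10% (SD, n = 5 each). The shares of *Gadd45a* and *Gadd45b* did not overlap between the groups, with *Gadd45b* at 15.2 to 25.2% and 31.8 to 48.9%. Those of *Gadd45g* did. *Gadd45a* was the largest share in all 5 NL retinas and the smallest in all 5 LD retinas, where *Gadd45b* was the largest in LD-1 and LD-7 and *Gadd45g* in LD-4, LD-6 and, by 38.8% against 38.4%, in LD-8. Of 9 genes of *Gadd45* partners and stress kinases, *Map3k4* and *Mapk14* among them, none was called, and the median log2 fold change was -0.00. In this list 4 genes had a limma adjusted p under 0.01 at less than 2-fold, in both directions. Their log2 fold changes were -0.53 for *Map2k6*, -0.29 for *Map2k7*, -0.25 for *Mapk8* and 0.35 for *Map2k3*.

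**Figure D3:**
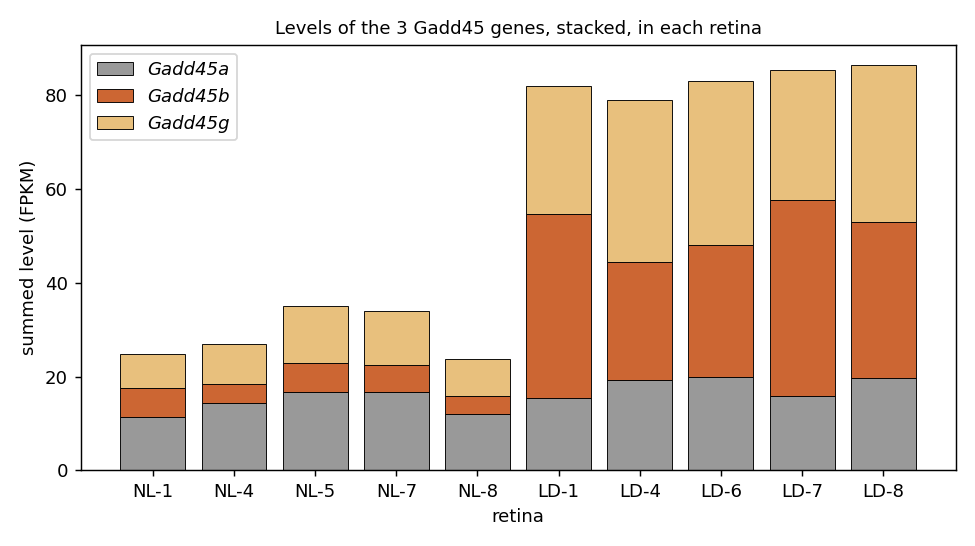
Levels of *Gadd45a*, *Gadd45b* and *Gadd45g* in FPKM, stacked from 0, for each of the 5 NL and 5 LD retinas. The summed level is 23.8 to 34.9 FPKM in the NL retinas and 79.1 to 86.5 FPKM in the LD retinas, and the *Gadd45b* segment is largest in LD-7 and LD-1.

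Set in order of FPKM, the 10 genes under NL ran *Ccng1*, *Sesn1*, *Mdm2*, *Gadd45a*, *Gadd45g*, *Trp53*, *Gadd45b*, *Phlda3*, *Cdkn1a* and *Eda2r*. Neighbours whose NL values overlapped were *Mdm2* and *Gadd45a*, *Gadd45a* and *Gadd45g*, *Trp53* and *Gadd45b*, and *Gadd45b* and *Phlda3*. After LD the order was *Gadd45b*, *Gadd45g*, *Ccng1*, *Gadd45a*, *Mdm2*, *Sesn1*, *Phlda3*, *Trp53*, *Cdkn1a* and *Eda2r*. Here *Gadd45g* overlapped with *Gadd45b* and *Ccng1*, and *Mdm2* with *Gadd45a* and *Sesn1*. So *Gadd45b* and *Gadd45g* reached the level of *Ccng1*, while *Cdkn1a* and *Eda2r* stayed the lowest of the 10 despite their fold changes. *Cdkn1a* FPKM was 0.0729 ± 0.0290 of *Mdm2* FPKM under NL and 0.335 ± 0.0482 after LD (SD, n = 5 each).

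The retinas of a group did not vary alike in all genes. Under NL, *Cdkn1a*, *Eda2r* and *Mdm2* had the same order, NL-8 highest, then NL-1, NL-5 and NL-7, and NL-4 lowest. On the log2 scale *Cdkn1a* lay 0.78 above its group mean in NL-8 and -0.92 from it in NL-4, *Eda2r* 0.78 and -0.54, and *Mdm2* only 0.13 and -0.09. NL-8 and NL-1 were also highest in the summed pigment epithelium markers, at 168 and 103 FPKM (58.6 to 79.9 FPKM in NL-4, NL-5 and NL-7), and in *Rpe65*, at 20.7 and 17.2 FPKM (7.04 to 11.8 FPKM). Without both retinas, a setting added once the values were known, the log2 fold change was 2.58 for *Cdkn1a* and 2.97 for *Eda2r*, both called, and 0.18 for *Gadd45a* (limma adjusted p = 0.289).

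The LD retinas also differed among themselves. LD-1 and LD-7 were the lowest of the LD retinas in 7 of the 10 genes (*Trp53*, *Cdkn1a*, *Gadd45a*, *Gadd45g*, *Ccng1*, *Phlda3* and *Sesn1*) and the highest in *Gadd45b* and *Mdm2*. These retinas were closer to each other than to others over all genes, with a chi-square per gene of 3.65 between their reads, as were LD-4 and LD-6, with 2.65, and NL-5 and NL-7, with 2.87, where the other pairs within a group had 12.2 or more. LD-8 was nearer to LD-1 and LD-7 (19.3 and 16.9) than to LD-4 and LD-6 (24.3 and 23.7), and between the 2 close LD pairs the values were 35.2 to 43.4. Whether the retinas of a close pair came from 1 mouse cannot be told from the labels. With each close pair averaged, which leaves 4 NL and 3 LD samples, 1076 genes were called, among them the same 5 of the 10, *Cdkn1a* with an adjusted p of 0.00689. The summed microglia and macrophage markers were 146 and 126 FPKM in LD-1 and LD-7 and 61.3 to 85.1 FPKM in the others, while the endothelial markers were 100 and 101 FPKM in LD-4 and LD-6 and 63.1 to 66.3 FPKM in the others. Of the endothelial sums, *Kdr* alone made up 64.4 and 62.5 FPKM in LD-4 and LD-6 and 38.1 to 45.8 FPKM in the others. LD-4 and LD-6 also had the highest sums of Müller glia markers, 1156 and 1251 FPKM against 915 to 979 FPKM, and the lowest of rod markers, 1565 and 1674 FPKM against 2511 to 3061 FPKM. What part these cells had in the differences between LD retinas was not tested. With LD-1 and LD-7 left out, the log2 fold change was 2.45 for *Gadd45b*, 1.88 for *Gadd45g*, 0.49 for *Gadd45a* and -0.01 for *Mdm2* (adjusted p = 0.919), and with LD-4 and LD-6 left out it was 2.86, 1.66, 0.27 and 0.07. In both cases the number of the 10 genes called was 5.

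**Figure D4:**
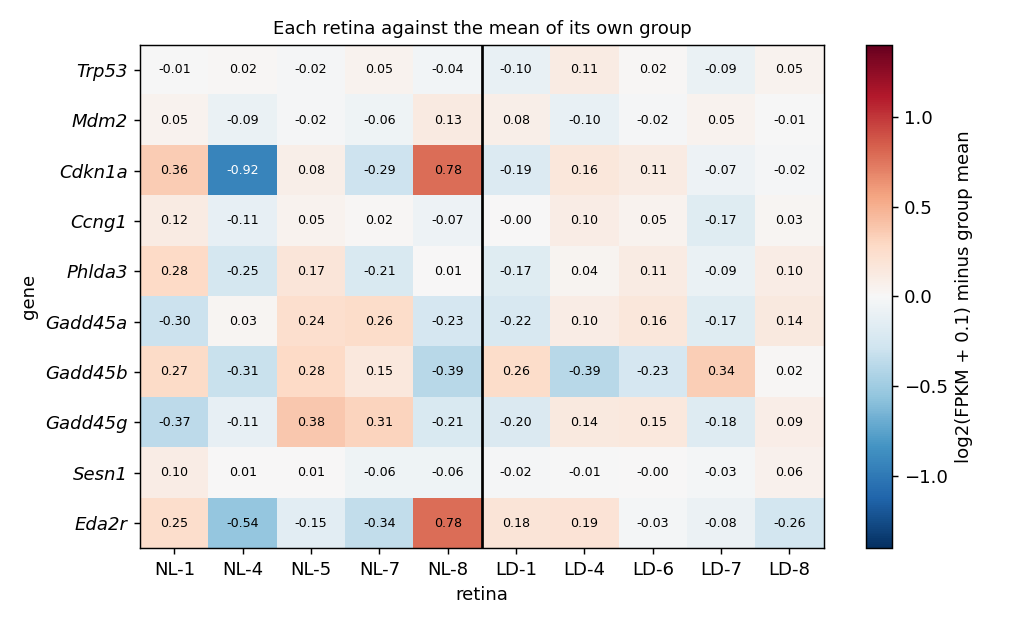
Each cell is the log2(FPKM + 0.1) of a gene (rows) in a retina (columns) minus the mean of that retina's own group of 5; red is above and blue below the mean. The deepest cells are *Cdkn1a* in NL-4 at -0.92 and *Cdkn1a* and *Eda2r* in NL-8 at 0.78. *Gadd45b* is opposite in sign to *Gadd45a* and *Gadd45g* in LD-1, LD-4, LD-6 and LD-7, and also in NL-1.

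The genes around p53 were followed in 9 lists of 101 genes in all, of which 95 were tested. Here 9 genes rose and none fell, which is 9.47% called against 6.51% of all genes tested, of which 4.13% were higher. The median log2 fold change of the lists was 0.03. At an adjusted p under 0.01 with any fold, 31 of the 95 passed, against 17.0% of all genes tested. In 3 lists of other p53 targets, with 40 genes, all tested, 5 rose (12.5%) and the median was 0.20. Of 14 further arrest and feedback targets, 2 rose. *Rprm*, the gene of reprimo, a cytoplasmic mediator of arrest in G2, measured 2.66, 2.81, 2.40, 2.23 and 3.27 FPKM under NL and 7.44, 8.95, 7.99, 7.31 and 7.72 FPKM after LD (log2 fold change 1.54, limma adjusted p = 2.54e-06). *Gtse1*, which encodes a microtubule-binding protein of the G2 and S phases that restrains p53, went from at most 7 reads to 13 to 26 reads per retina (log2 fold change 1.46, limma adjusted p = 9.93e-04) and passed the filter only through its LD values. Another 7 of the 14 passed the p-value alone, in both directions: *Plk2* was higher, from 7.13 ± 0.473 to 11.4 ± 0.758 FPKM (log2 fold change 0.68), and *Ppm1d*, the phosphatase gene that closes a negative feedback on p53, was lower, from 22.4 ± 1.39 to 15.5 ± 1.86 FPKM (log2 fold change -0.53; SD, n = 5 each).

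Of 13 apoptosis targets, 3 rose. *Bbc3*, the gene of the BH3-only protein PUMA, measured 2.53, 2.46, 2.57, 2.17 and 2.30 FPKM under NL and 5.10, 6.48, 5.77, 5.81 and 7.45 FPKM after LD (log2 fold change 1.30, limma adjusted p = 6.91e-06). *Fas*, the gene of a death receptor, went from 0.204 ± 0.0646 to 1.66 ± 0.476 FPKM (SD, n = 5 each; log2 fold change 2.51, limma adjusted p = 3.09e-05), and its LD values, 1.32, 1.94, 1.91, 1.000 and 2.12 FPKM, were lowest in LD-7 and LD-1. *Aen*, the gene of an apoptosis-enhancing nuclease, went from 2.92 ± 0.314 to 6.04 ± 0.245 FPKM, just past 2-fold (log2 fold change 1.03, limma adjusted p = 6.17e-06). *Bax*, which encodes the pore-forming effector of mitochondrial apoptosis, passed the p-value at a log2 fold change of 0.36. *Pmaip1*, the NOXA gene, had means of 0.368 and 0.556 FPKM and did not pass (adjusted p = 0.154). Groups did not overlap in the 3 called genes.

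None of 14 repair and metabolism targets was called, and their median was -0.03. In this list 4 genes passed the p-value under 2-fold, in both directions, from *Tigar*, a brake on glycolysis, at -0.69 (10.5 ± 0.937 and 6.46 ± 0.576 FPKM) to *Rps27l*, a ribosomal protein relative, at 0.85 (13.3 ± 1.27 and 24.0 ± 1.00 FPKM; SD, n = 5 each). Of 19 regulators and relatives of p53, *Mdm4*, *Atm* and *Chek2* among them, 17 were tested and none was called, with log2 fold changes of -0.39 to 0.39. Of the 17, 3 passed the p-value under 2-fold, all lower: *Kat5* and *Ppp1r13b* at -0.21 each and *Trp53bp2* at -0.24. None of 10 sestrin partners was called, with a range of -0.35 to 0.08, and 1 of them, *Wdr59* at -0.35, passed the p-value. The lists were drawn up with earlier results of these data known, and no test of a list as a whole was made.

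Of 12 cyclins, CDKs and related genes of the G1 and G2 checkpoints, 11 were tested and 3 rose. *Ccnd1*, the cyclin D1 gene, measured 3.18, 2.61, 2.09, 2.23 and 2.09 FPKM under NL and 5.54, 10.2, 9.07, 5.86 and 6.05 FPKM after LD (log2 fold change 1.52, limma adjusted p = 1.85e-04), high in LD-4 and LD-6 as *Cdkn2b* was. *Ccnd3*, the cyclin D3 gene, went from 4.57 ± 0.628 to 10.1 ± 0.527 FPKM (SD, n = 5 each; log2 fold change 1.13, limma adjusted p = 7.66e-06). *Cdk1*, the kinase gene of mitotic entry, had at most 9 reads under NL and 11 to 44 reads after LD (log2 fold change 1.24, limma adjusted p = 0.00474). Like *Gtse1* it passed the filter only through its LD values, and it is also among the markers of dividing cells. *Ccnd2* had a log2 fold change of 1.67 but overlapping groups and an adjusted p of 0.0147. *Ccnd1* and *Ccnd3* were thus higher after LD, as were the inhibitor genes *Cdkn1a* and *Cdkn2b*.

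**Figure D5:**
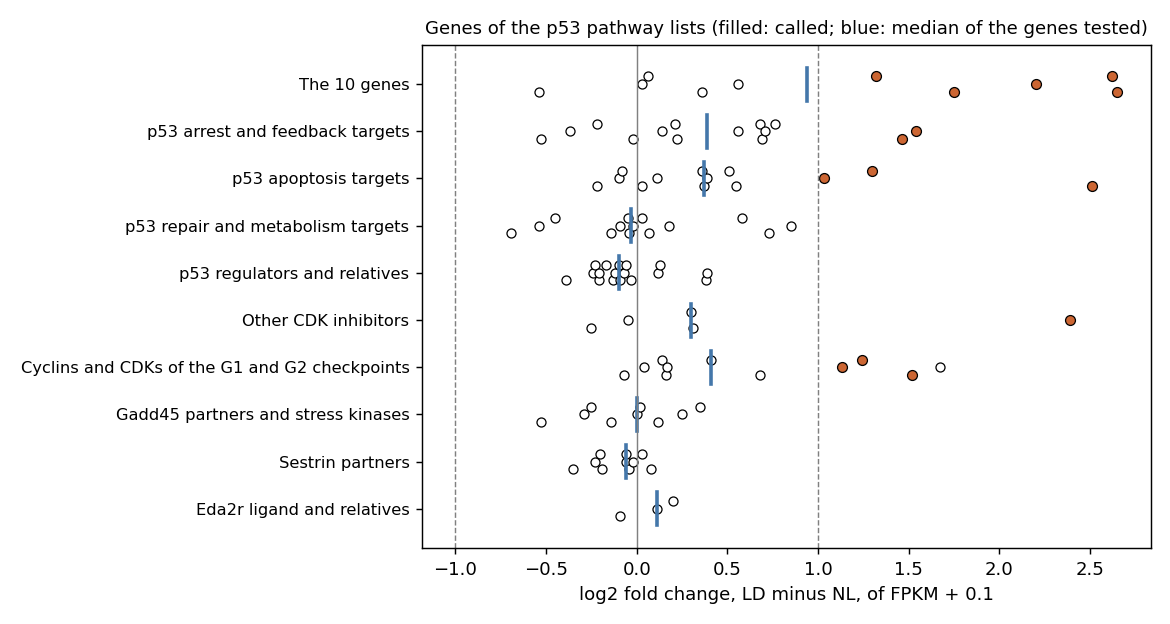
Log2 fold change, LD minus NL, of FPKM + 0.1 (horizontal axis) for the 10 genes and for each tested gene of 9 lists around p53 (rows); filled points are called, blue bars are medians and dashed lines mark 2-fold. No point lies at or below -1, and the medians of the 9 lists run from -0.10 to 0.41 against 0.94 for the 10 genes.

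The scaling mattered for the genes with small differences. The deposited FPKM carry a library size factor, 0.951 to 0.968 for NL and 1.041 to 1.069 for LD. Without it, the median log2 fold change of all genes moved to 0.11, and the values were 0.16 for *Mdm2* (adjusted p = 0.0305), 0.20 for *Ccng1* (adjusted p = 0.0342), 0.49 for *Gadd45a* (adjusted p = 0.0147), 0.69 for *Trp53* and -0.41 for *Sesn1*. Relative to that median, *Mdm2* and *Ccng1* were again close to all genes. The same 5 of the 10 genes were called.

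For each called gene, the protein-coding genes with the most similar profile were found by the root mean square difference of log2 values, centred on the NL mean, over the 10 retinas. For *Cdkn1a* these were *H2-M3* (0.26), *Tnfrsf1a* (0.32) and *Tst* (0.33). For *Gadd45b* they were *Phf11d* and *Junb* (0.22 each) and *Ube2l6* (0.24), and for *Gadd45g* they were *Mt1* (0.15), *Psme2b* (0.19) and *Csrnp1* (0.20). Near *Phlda3* were *Syt2* (0.13) and *Eef1akmt4* (0.14), and near *Eda2r* were *Tspo* (0.20), *Stx11* (0.25) and *Tor3a* (0.26). *Junb*, the gene of an AP-1 subunit, measured 11.6 to 13.1 FPKM under NL and 69.2 to 106 FPKM after LD, and *Mt1*, a metallothionein gene, 38.2 to 56.3 and 120 to 198 FPKM. The measure covers both groups, so it includes the difference between them.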

How the data were processed

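Total RNA of 5 NL and 5 LD retinas was sequenced in 150-base pairs, on a HiSeq according to the study's methods and a NovaSeq according to the labels. The authors deposited FPKM per gene, normalized by a sequencing company, with no counts. The submitters' processing notes name TopHat2 2.0.9, Bowtie2 2.0.6 and the build mm8, whereas the gene positions in the table are on GRCm38. The counting program and its use of strand are not given in the sources used here. Reads per gene were recovered from FPKM and gene length, and 100% of values were whole within 0.01 reads.

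Genes reaching 0.1 FPKM in 5 or more retinas (24508) were fitted as log2(FPKM + 0.1) in limma 3.58.1 (R 4.3.3), with an intensity trend and no block. The Benjamini-Hochberg adjustment ran over all of them. For low genes the pseudocount shrinks the fold change. Self-made simulated data were used to test the script. The 10 genes, the lists and the tests were chosen with earlier results of these data known. Named genes are the 10, every called gene of each pathway list, overlapping genes, and the 3 protein-coding genes nearest in profile to each called gene. Some of these are not reported here. Some genes that were not called are named beside them as examples, chosen after their values were seen. Start windows are from RefSeq on GRCm38.p6, 32851 windows of 27025 genes, and all 10 genes matched. Alternatives changed the pseudocount, filter, scaling, trend, threshold, block and retinas. Tables were handled in Python 3.11.15 with pandas 2.3.3 and numpy 2.4.6, and plots were drawn with matplotlib 3.10.9.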

Additional observations from a re-analysis of the deposited data

How the results depend on the processing

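Of the 10 genes, 5 were called in limma, and 4 to 7 under the alternatives. *Gadd45b*, *Gadd45g* and *Phlda3* kept their direction and stayed past the threshold in all 25 alternatives run on single genes. The log2 fold change of *Eda2r* was under 2-fold with a pseudocount of 1 FPKM (0.81, adjusted p = 8.66e-06), which by construction shrinks low genes. *Mdm2* changed sign, to -0.01 (adjusted p = 0.919), when LD-1 and LD-7 were left out, and passed the threshold nowhere. Over all genes 1595 were called: 4178 at an adjusted p under 0.01 with any fold, 6818 at an adjusted p under 0.05 with any fold, 816 with a pseudocount of 1 FPKM, and 1379 to 1603 with 1 retina left out. Of the pathway lists 9 genes were called, and 31, 42, 5 and 7 to 9 under the same alternatives. The other alternatives kept these counts within 1.5 times, apart from the block.

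The groups share replicate numbers 1, 4, 7 and 8, and the deviations of same-numbered retinas correlated at 0.0575, 0.0656, -0.0121 and -0.0893, so the numbers were not taken to pair the retinas. With the replicate number as a block, on these 8 retinas, 808 genes were called against 1182 without it, 4 of the 10 genes against 5, and 6 list genes against 7. *Cdkn1a* had a log2 fold change of 2.19 in both fits, with an adjusted p of 0.0122 with the replicate block and 0.00242 without. Depth limits *Eda2r*, *Gtse1* and *Cdk1* under NL, where few reads were counted.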
